A study of Mus musculus with 9 samples.

Results

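RNA of the population that the submitters named TDC was set against RNA of conventional dendritic cells (DC), both sorted from mouse spleens. The comparison uses 6 of the 9 libraries of the study, 3 of TDC and 3 of DC, and they were chosen by their labels alone. The other 3 libraries hold conventional T cells and took no part in the fit. Every mouse was untreated, 8 weeks old and homozygous for Zbtb46-GFP, a reporter that places green fluorescent protein under the Zbtb46 locus, so TDC and DC carried the same alleles. Replicate 1 of each population came from the pooled spleens of 5 mice, and replicates 2 and 3 from 6 mice each. The sources used here state neither the sort gates nor which mice entered which pool, and the p-values cover the spread from pool to pool.

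Conventional DC arise under the growth factor receptor Flt3, load peptides onto major histocompatibility complex (MHC) class II molecules and, once mature, follow the receptor Ccr7 towards T cell zones. Their type 1 lineage is known for cross-presenting cell-bound antigen to CD8 T cells, and their type 2 lineage for priming CD4 T cells. The spleen also holds red pulp macrophages, which depend on the transcription factor SpiC, swallow aged red blood cells, split their heme with heme oxygenase 1 (Hmox1) and return the iron to the blood through ferroportin (Slc40a1). Both kinds of cell belong to the mononuclear phagocytes and share much of their machinery.

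The libraries held 14594850 to 22677130 reads in genes for TDC and 14973484 to 25676640 for DC, and 13332 genes were tested. Levels are CPM, that is read counts scaled to a common library size, after TMM scaling, the values of replicates 1, 2 and 3 are given in that order, and n is 3 libraries in each group. Differences are log2 fold changes of TDC over DC with their standard error (SE), tested with edgeR's quasi-likelihood test and Benjamini-Hochberg adjustment over the 13332 genes, and a gene is called at an adjusted p under 0.05. A gene with no reads in any library of a group has a fold only as a lower bound, computed from 3 reads over the group, which is 0.0478 CPM in DC and 0.063 CPM in TDC and covers counting error only. With simulated counts of this spread, 37 of 64 genes changed 8-fold were called, 6 of 68 changed 4-fold and 0 of 64 changed 2-fold. There 12755 of 12951 genes were unchanged, so the adjusted threshold was harder to reach than in the data, where more genes were called. These shares are therefore not the power of the test on the data. A gene that was not called may still differ by several-fold. Of 367 called members of the gene lists used below, 223 stayed called whichever single library was left out. Genes named as called belong to these unless a sentence says otherwise.

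TDC and DC differed in 1790 genes, 13.4% of those tested: 1199 were higher in TDC (8.99%) and 591 were lower (4.43%). The differences were large. The median log2 fold change was 4.21 among the higher genes and -3.12 among the lower ones, against -0.0142 over all genes tested, and 749 genes were over 3 upwards and 319 over 3 downwards. With library-size scaling in place of TMM, the median over all genes moved to -0.278, and 1002 genes were higher and 767 lower. Of all reads, 32.5% to 36.5% in TDC libraries and 4.07% to 4.99% in DC libraries fell in the higher genes. The lower genes took 2.38% to 3.72% in TDC and 17.7% to 20.3% in DC. Among the higher genes, 187 had no read in any DC library, and 21 of the lower genes had none in TDC. Single libraries mattered for these counts. Leaving out TDC replicate 2 left 688 higher and 208 lower genes, leaving out TDC replicate 3 left 777 higher, and 330 and 257 were lower without TDC replicate 1 and DC replicate 1.

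**Figure D1:**
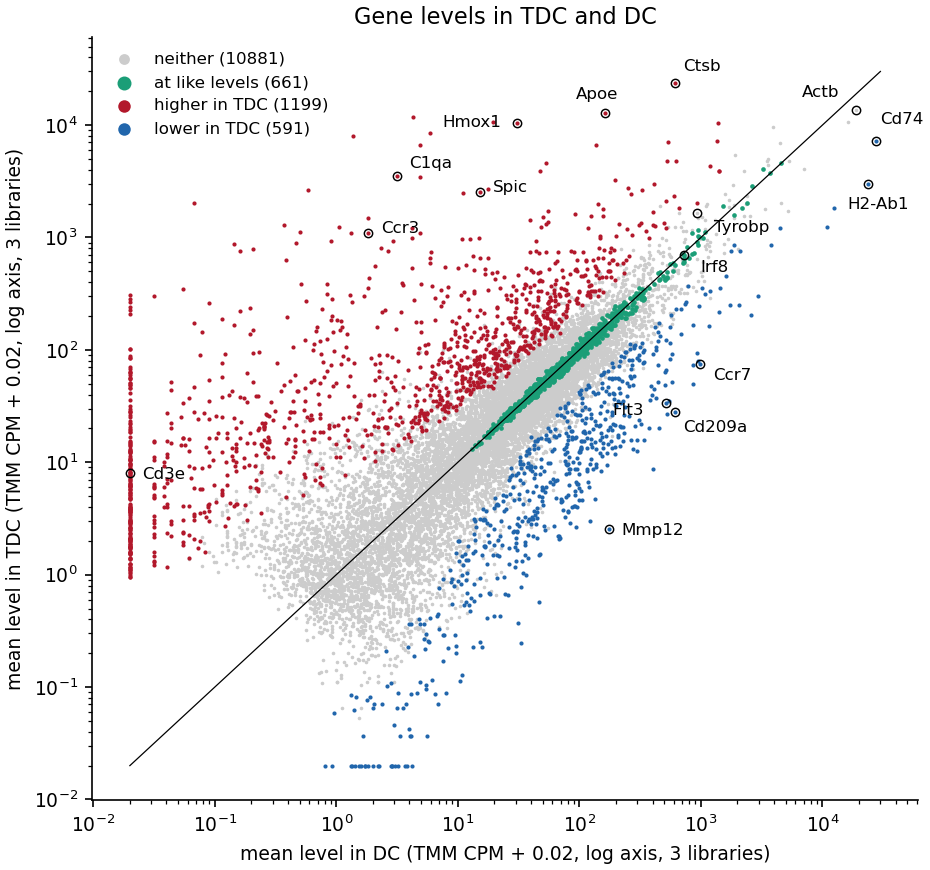
Mean level of each of the 13332 tested genes in DC (horizontal) and TDC (vertical), in TMM-scaled CPM plus 0.02 on log axes, over 3 libraries each, with the line of equal level. The 1199 genes higher in TDC reach from the diagonal up to Ctsb and Hmox1, the 591 lower genes lie on the other side with Mmp12, Flt3 and H2-Ab1, and the 661 genes at like levels run along the line.

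The labels were first read against marker genes. DC libraries carried the markers of their label. Flt3, the receptor that drives DC growth, was at 542, 338 and 678 CPM in DC and at 11.8, 21.1 and 68.9 CPM in TDC, so every DC library lay above every TDC library. Its difference was -3.93 (SE 0.70, edgeR adjusted p = 0.00985). Zbtb46, the DC transcription factor whose locus carries the reporter, was at 42.6, 101 and 37.6 CPM in DC and at 6.47, 5.38 and 9.43 CPM in TDC (-3.09, SE 0.53, edgeR adjusted p = 0.00824). The protein of the reporter was not measured here, and reads near the 3' end of transcripts do not show which part of the locus they report on. TDC libraries carried genes of red pulp macrophages at high levels. Spic was at 3831, 2023 and 1775 CPM in TDC and at 9.58, 16.3 and 20.1 CPM in DC (7.37, SE 0.56, edgeR adjusted p = 0.000468). Genes of T cells were present in TDC at low levels, as described further on. In pools of sorted cells, fewer cells of a type and less RNA per cell cannot be told apart, and this holds for every result here.

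Of 28 genes of a red pulp macrophage list, 27 were higher in TDC, with a median log2 fold change of 8.36 against -0.0142 over all genes. It took 5.27% to 6.83% of reads in TDC libraries and 0.042% to 0.0648% in DC libraries. Hmox1 was at 15299, 9270 and 7028 CPM in TDC and at 23.3, 34.1 and 34.7 CPM in DC (8.42, SE 0.52, edgeR adjusted p = 0.000282). Slc40a1, the iron exporter, was at 8183, 16858 and 10012 CPM in TDC and at 4.05, 2.97 and 5.78 CPM in DC (11.4, SE 0.61). For both genes every TDC library lay far above every DC library. Vcam1, an adhesion molecule that marks these macrophages, was at 9044, 13741 and 9062 CPM in TDC and at 25.2, 9.59 and 23 CPM in DC. Cd5l, a secreted scavenger family protein, was at 3324, 2681 and 1991 CPM in TDC and had reads in 1 DC library, at 1.69 CPM. Adgre1, which encodes the macrophage antigen F4/80, differed less, with 1299, 2836 and 1821 CPM in TDC and 195, 91.7 and 138 CPM in DC (3.81, SE 0.46). Timd4, a receptor for phosphatidylserine on dying cells, was at 362, 401 and 384 CPM in TDC and at 7.46, 7.49 and 0 CPM in DC, and lost its call without DC replicate 1 (adjusted p = 0.063). The exception in the list was Cd209b, a lectin of marginal zone macrophages, at 13.2, 42.2 and 29.5 CPM in TDC and 16.2, 2.91 and 13.1 CPM in DC, where the groups overlapped (1.40, SE 0.69, edgeR adjusted p = 0.246).

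A wider list of genes shared by tissue macrophages gave the same direction, with 41 of 49 tested members higher and a median of 4.36. None of either list was called lower by edgeR, DESeq2 or limma-voom, and 0 and 1 were lower at an unadjusted p under 0.05. Mertk, a receptor that binds dying cells through bridging proteins, was at 400, 1230 and 757 CPM in TDC and had reads in 1 DC library, at 0.563 CPM. Its bridging ligand Gas6 was at 41.7, 95.9 and 48 CPM in TDC with no read in DC, at least 1293-fold higher. Fcgr1, the high-affinity receptor for IgG, was at 307, 190 and 149 CPM in TDC and at 2.57, 3.46 and 4.07 CPM in DC (6.00, SE 0.47). Csf1r, the receptor for the macrophage growth factor, was at 3031, 10323 and 6605 CPM in TDC and at 253, 30.6 and 124 CPM in DC (5.61, SE 0.88). Mertk, Gas6 and Csf1r were each highest in TDC replicate 2.

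Genes of the complement system were among the largest differences: 15 of 18 tested were higher in TDC, with a median of 8.40. The 3 chains of C1q, which start the classical pathway, stood out by level. C1qa was at 5005, 3036 and 2478 CPM in TDC and at 4.05, 2.23 and 3.14 CPM in DC (10.1, SE 0.56, edgeR adjusted p = 0.000252), and C1qb and C1qc differed by 10.5 and 10.4. C1qa, C1qb and C1qc were all highest in TDC replicate 1. Properdin (Cfp), which stabilises the alternative pathway, was already abundant in DC, at 630, 814 and 438 CPM, and was at 6956, 4122 and 3265 CPM in TDC (2.93, SE 0.42). Vsig4, a receptor for fragments of C3, was at 27.7, 33.5 and 28.2 CPM in TDC with no read in DC, at least 623-fold higher. Ficolin A (Fcna), a lectin that feeds the lectin pathway, was at 11887, 6521 and 5547 CPM in TDC and at most 3.1 CPM in DC.

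In the heme and iron list, 18 of 24 tested genes were higher in TDC and 1 was lower, with a median of 3.62. The higher genes covered import of heme from the phagosome (Slc48a1, 4.42, SE 0.36) and its breakdown (Hmox1 and the biliverdin reductases Blvra, 3.36, and Blvrb, 6.10, SE 0.64). They also covered export of iron from the phagosome (Slc11a1, 4.96, SE 0.35) and export from the cell (Slc40a1). The ferritin chains differed less. Fth1 was at 14156, 8866 and 6092 CPM in TDC and at 2521, 7196 and 2020 CPM in DC, where the groups overlapped (1.31, SE 0.56, edgeR adjusted p = 0.174). Ftl1 was called (2.41, SE 0.59, adjusted p = 0.0325), but not without TDC replicate 1 or 2 or DC replicate 1 or 3 (0.0673 to 0.0999). The lower gene was Bach1, a heme-sensing repressor, with 5.7, 10.5 and 10.6 CPM in TDC and 31.9, 28.5 and 21.2 CPM in DC (-1.61, SE 0.44, edgeR adjusted p = 0.0464), a call lost without any 1 of the 6 libraries (0.0504 to 0.15). The entry receptor for transferrin, Tfrc, overlapped between the groups.

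Erythroid genes moved with these groups. Of 18 tested, 14 were higher in TDC, with a median of 7.51, and the list took 0.161%, 0.1% and 0.0639% of the reads in TDC replicates 1, 2 and 3 against at most 0.00486% in a DC library. Hbb-bs, a beta globin gene, was at 932, 410 and 258 CPM in TDC and at 1.97, 10.1 and 0.496 CPM in DC (7.01, SE 1.18, edgeR adjusted p = 0.00796). Alas2, the erythroid enzyme of heme synthesis, was at 51.6, 59.3 and 36.4 CPM in TDC and at 0.246, 0.804 and 0 CPM in DC (7.16, SE 1.01). The globin genes and Hmox1 shared their order over the 3 TDC libraries, highest in replicate 1 and lowest in replicate 3. Spic and C1qa had this order too, whereas Alas2, Slc40a1 and Slc11a1 were highest in replicate 2. Whether the erythroid RNA came from other cells in the sort was not tested.

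**Figure D2:**
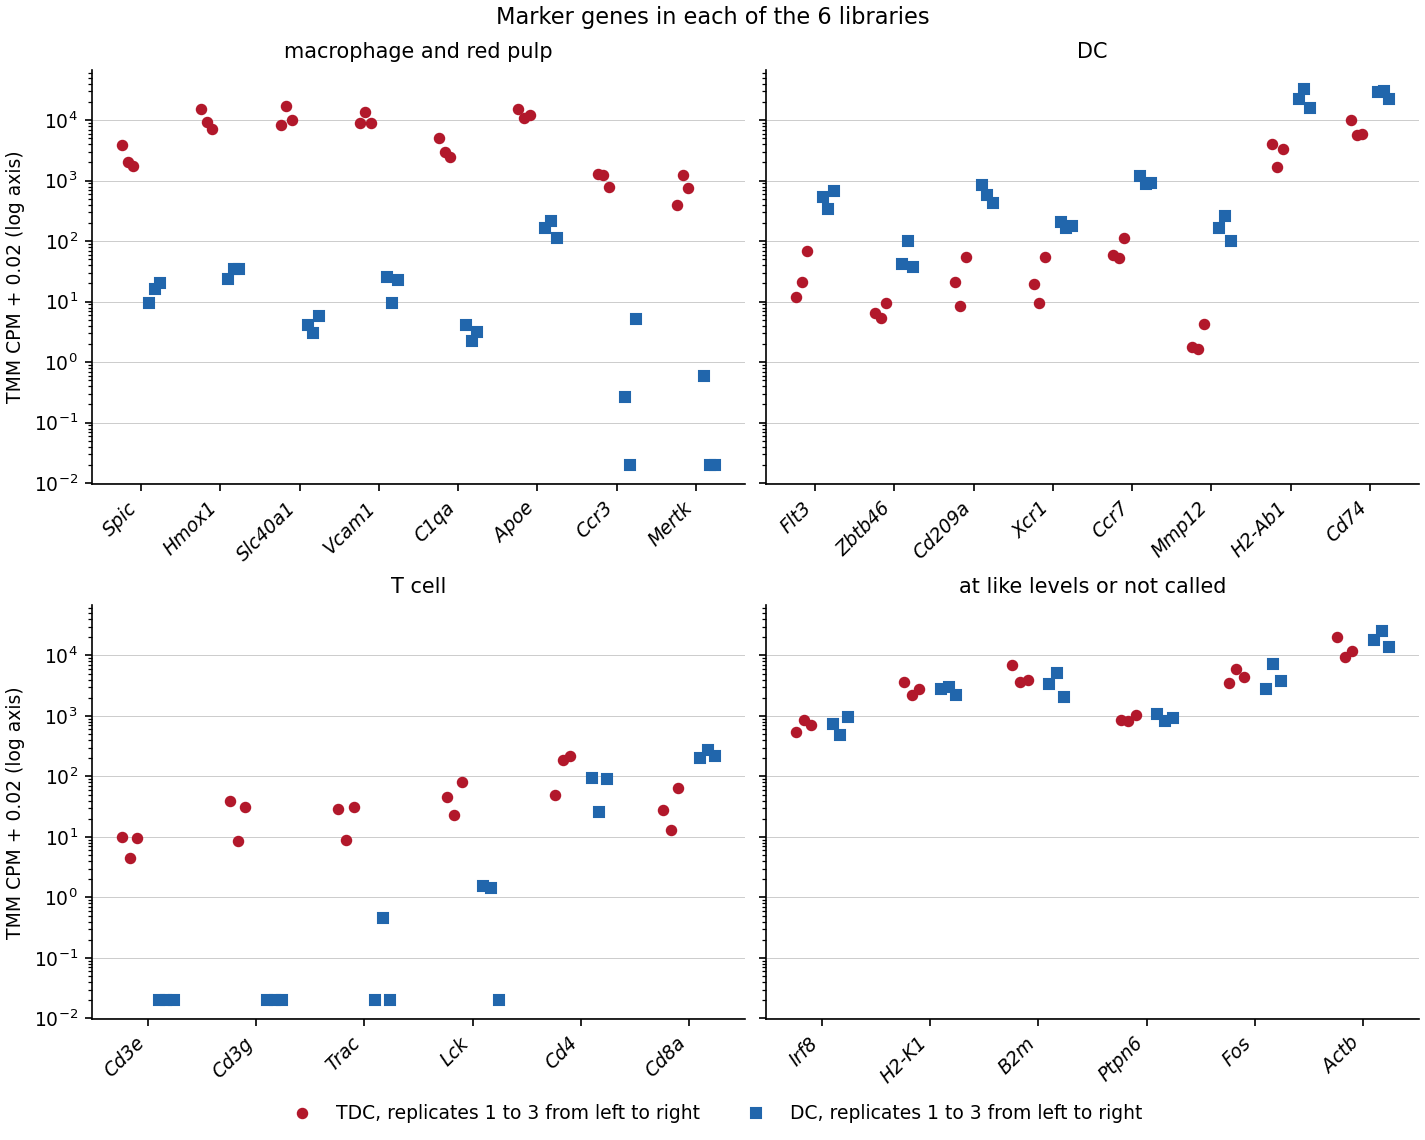
TMM-scaled CPM plus 0.02 (log axis) of marker genes in each library, with circles for TDC and squares for DC and replicates 1 to 3 from left to right. Macrophage genes lie above in every TDC library, DC genes above in every DC library, T cell receptor genes are low in TDC and at or near 0 in DC, and the genes of the last panel overlap.

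Genes for engulfing and digesting other cells were mostly higher in TDC. In the list of efferocytosis and scavenger receptors, 15 of 25 were higher and 2 lower, Cd36 and the integrin Itgb3, both of whose calls were lost without TDC replicate 2 or 3 or DC replicate 1, and Cd36 also without TDC replicate 1 or DC replicate 3. The mannose receptor Mrc1 was at 544, 2221 and 939 CPM in TDC and at 2.64, 0.247 and 0.22 CPM in DC (10.1, SE 1.27, edgeR adjusted p = 0.00275). Of 26 genes for lipid handling, 14 were higher and 2 lower, with a median of 1.61. Without DC replicate 1 there were 9 higher, and both lower calls were lost when any library other than DC replicate 2 was left out. Apoe, the carrier of cholesterol that leaves the cell, was at 15183, 10984 and 12180 CPM in TDC and at 163, 213 and 113 CPM in DC (6.29, SE 0.43). Abca1, which loads such carriers, differed by 7.22 (SE 0.80), and the lipoprotein lipase Lpl by 8.58 (SE 1.05). Genes of cholesterol and fatty acid synthesis did not follow: Sqle, Hmgcs1 and the fatty acid synthase Fasn were not called, with differences of -0.37, -0.31 and -0.39.

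Most lysosomal genes were higher in TDC too. Of 50 tested, 30 were higher in TDC and 2 lower, with a median of 1.60, and without TDC replicate 2 or DC replicate 1 there were 19 higher. The list took 6.26% to 7.24% of reads in TDC libraries and 2.58% to 2.8% in DC libraries. The proteases showed the widest differences. Ctsb (cathepsin B) was the gene with the highest mean level in TDC, at 23202, 28682 and 19037 CPM against 749, 495 and 584 CPM in DC (5.28, SE 0.38, edgeR adjusted p = 0.000362). Ctsd, at 4832, 5292 and 3724 CPM in TDC and 67.8, 45.1 and 47.7 CPM in DC, differed by 6.43 (SE 0.40). Ctsl differed by 4.97 and the asparaginyl protease Lgmn by 4.63. The membrane protein Lamp1, which lines every lysosome, was at 2310, 2586 and 2363 CPM in TDC and at 323, 220 and 250 CPM in DC (3.19, SE 0.32, edgeR adjusted p = 0.0011). Ctsh was at like levels, as defined further on. The lower members were Gm2a, an activator of ganglioside breakdown, at 1196, 1191 and 1277 CPM in TDC and 4774, 4657 and 4071 CPM in DC (-1.88, SE 0.28), and Ppt1, whose call was lost without any 1 library (adjusted p = 0.0567 to 0.199). Tfeb, a transcription factor that drives many lysosomal genes, was not called (-0.46, SE 0.31).

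The promoters of the tested lysosomal genes, called or not, were read for the hexamer CACGTG, the core of the element through which TFEB and its relatives act. The share with a match therefore describes the gene list and not the difference between TDC and DC. RefSeq promoter windows of 300 bases, 250 before to 50 after the start (GRCm38.p6), were found for 40 of the 50 lysosomal genes, and 13 of them (32.5%) held the hexamer. The share was 11.7% among the 9492 tested genes with a window and 8.09% among all 27025 genes with one. It was 0 of 19 for the red pulp macrophage list and 6 of 32 for a conventional DC list. The hexamer reads the same on both strands, so each match was counted once. A match describes the letters of the window and is not a site. The windows of Lamp1 and Ctsd are shown because both genes were abundant in TDC and hold several matches, which are in capitals. Lamp1 lies at chr8:13158911-13159210 on the plus strand and holds 4, and Ctsd at chr7:142387778-142388077 on the minus strand and holds 2.
Lamp1: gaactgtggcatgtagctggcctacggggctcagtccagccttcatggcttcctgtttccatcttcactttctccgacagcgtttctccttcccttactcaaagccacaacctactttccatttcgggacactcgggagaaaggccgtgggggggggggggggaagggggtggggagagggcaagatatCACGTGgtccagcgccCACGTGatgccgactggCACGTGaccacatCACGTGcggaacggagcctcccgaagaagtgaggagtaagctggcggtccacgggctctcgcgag
Ctsd: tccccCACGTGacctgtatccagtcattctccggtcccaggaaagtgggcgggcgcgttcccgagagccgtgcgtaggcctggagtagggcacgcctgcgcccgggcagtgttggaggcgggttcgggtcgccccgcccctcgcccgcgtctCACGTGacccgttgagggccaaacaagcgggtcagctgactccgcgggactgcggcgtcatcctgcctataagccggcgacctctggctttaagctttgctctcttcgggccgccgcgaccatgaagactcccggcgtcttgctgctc

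Among 22 genes of the phagocyte oxidase and of defence against oxidants, 7 were higher and 1 lower, with a median of 0.912. Leaving out a single library left 2 to 5 higher, 2 of them without TDC replicate 2. Gclm, a subunit of the enzyme that starts glutathione synthesis, was at 139, 178 and 117 CPM in TDC and at 13, 17 and 10.9 CPM in DC (3.41, SE 0.38, edgeR adjusted p = 0.00154). Txnrd1, thioredoxin reductase, differed by 2.45 (SE 0.46). The oxidase subunits Cybb and Cyba were not called, with 0.88 and 0.95, and Ncf4 was lower (-2.17, SE 0.43, edgeR adjusted p = 0.0149, but 0.0752 without TDC replicate 2). Windows were found for 17 of the 22 genes, and 7 (41.2%) held TGACNNNGC on either strand, a core of the antioxidant response element, against 17.4% of tested genes and 14% of all genes with a window. The share was 25% for the lysosomal, conventional DC and MHC class II lists and 21.1% for the red pulp macrophage list. The hexamer CACGTG overlapped a match of this motif in 101 of 32851 windows and in none of those shown. Gclm lies at chr3:122245307-122245606 on the plus strand, and its match, in capitals, is on the other strand.
Gclm: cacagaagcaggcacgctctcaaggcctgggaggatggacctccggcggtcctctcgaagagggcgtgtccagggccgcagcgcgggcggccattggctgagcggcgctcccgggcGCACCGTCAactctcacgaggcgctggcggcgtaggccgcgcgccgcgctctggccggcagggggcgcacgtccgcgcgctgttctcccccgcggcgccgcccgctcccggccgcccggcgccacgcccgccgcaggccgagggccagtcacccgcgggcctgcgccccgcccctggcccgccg

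The genes that define conventional DC showed the opposite difference. Of 38 genes of a conventional DC list, 29 were lower in TDC and 1 was higher, with a median of -3.51, and 36 had every DC library above every TDC library, as 16.3% of all tested genes did. Without TDC replicate 2, 15 of them were lower, and without DC replicate 1, 18. Ccr7, the receptor that guides DC to T cell zones, was at 1191, 869 and 903 CPM in DC and at 59.8, 52.5 and 114 CPM in TDC (-3.71, SE 0.42, edgeR adjusted p = 0.00179). P2ry10, a receptor for lysophospholipids, was at 281, 129 and 95.4 CPM in DC and at 13.5, 4.92 and 10.1 CPM in TDC (-4.15, SE 0.60). Itgax, which encodes CD11c, was at 528, 178 and 498 CPM in DC and at 53.3, 106 and 119 CPM in TDC. Its groups did not overlap, but the call (-2.12, SE 0.51, edgeR adjusted p = 0.0303) was lost without any of 5 libraries (0.0633 to 0.0994), the exception being DC replicate 2. The higher gene was Id2, a partner of transcription factors in many leukocytes (1.86, SE 0.48, adjusted p = 0.0392), and it lost its call without TDC replicate 1 or 2 or DC replicate 1 or 3 (0.0882 to 0.125). Irf8, a transcription factor of both DC and macrophages, was at like levels.

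Genes of both DC lineages were among the lower ones. Of 22 type 1 genes, 10 were lower and 2 higher (median -2.22), and of 24 type 2 genes 9 were lower and 3 higher (median -1.64). Without TDC replicate 1 or DC replicate 1, 5 type 1 genes were lower and 1 higher, and without TDC replicate 2 or DC replicate 1, 5 and 6 type 2 genes were. Clec9a, a type 1 receptor for the actin of dead cells, was at 80.2, 89.1 and 132 CPM in DC and at 12.8, 4.52 and 21.6 CPM in TDC (-2.96, SE 0.59, edgeR adjusted p = 0.015). Xcr1, the chemokine receptor of the same lineage, was at 210, 168 and 176 CPM in DC and at 19.9, 9.54 and 55 CPM in TDC, and its call (adjusted p = 0.0247) was lost without TDC replicate 1 or DC replicate 1 (0.0739 to 0.0781). Cd209a, a type 2 lectin, was at 835, 584 and 427 CPM in DC and at 20.9, 8.39 and 55.4 CPM in TDC (-4.45, SE 0.72, edgeR adjusted p = 0.00693). Mmp12, a matrix metalloprotease, differed most among the marker genes lower in TDC: it was at 166, 258 and 100 CPM in DC and at 1.77, 1.61 and 4.28 CPM in TDC (-6.10, SE 0.63, edgeR adjusted p = 0.00131). Some members went the other way. The inhibitory receptor Sirpa, which binds CD47, was at 1473, 4919 and 2666 CPM in TDC and 606, 153 and 475 CPM in DC (2.88, SE 0.63, adjusted p = 0.021, but 0.0579 without TDC replicate 2). The lectin-like receptor Clec12a differed by 2.28 (SE 0.40), and the adhesion molecule Cadm1 by 2.14 (SE 0.34). In TDC, Flt3, Zbtb46, Xcr1, Clec9a, Cd209a and Mmp12 were each highest in replicate 3.

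Genes of antigen presentation were read by class. Of 16 MHC class II genes, 9 were lower in TDC and 1 higher, with a median of -2.36, and the list took 7% to 10.2% of the reads in DC libraries and 1.16% to 2.14% in TDC libraries. H2-Ab1, a chain of the class II molecule, was at 22561, 32732 and 16139 CPM in DC and at 3984, 1685 and 3365 CPM in TDC (-2.98, SE 0.46, edgeR adjusted p = 0.00567). H2-Aa differed by -2.78 (SE 0.47) and H2-Eb1 by -3.12 (SE 0.48). In a fit that also held the T cell libraries, where H2-Ab1 was at 0 to 6.86 CPM, the fold changes of H2-Ab1, H2-Aa and H2-Eb1 were nearly the same but the adjusted p-values were 0.128, 0.132 and 0.0799. The invariant chain Cd74 was at 29496, 30614 and 22624 CPM in DC and at 10128, 5626 and 5886 CPM in TDC (-1.93, SE 0.36, adjusted p = 0.0109), and its call was lost without TDC replicate 2 (0.0718) and in the fit with T cells (0.0546). Cd74 and H2-Ab1 were also among the 100 genes with the highest mean in TDC. The master regulator Ciita was at 427, 209 and 589 CPM in DC and at 20.2, 27.7 and 87.9 CPM in TDC (-3.17, SE 0.67, adjusted p = 0.0177, but 0.053 to 0.0656 without TDC replicate 2 or DC replicate 1). The DO chain H2-Oa (-4.49) and the DM chain H2-DMb2 (-4.13) were lower, whereas H2-DMa and H2-DMb1 were not called (-1.37 and -1.26). The higher gene was the invariant chain protease Ctss (1.47, SE 0.35, adjusted p = 0.0289), called with DC replicate 2 left out but not with any other library left out (0.0505 to 0.0856).

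MHC class I genes had a median of -0.0995. Of 20 tested, 2 (10%) were higher, near the 8.99% of all tested genes. At like levels were 4, against 4.96% of all tested genes, and the others were neither called nor at like levels. The heavy chain H2-K1 was at 3601, 2250 and 2773 CPM in TDC and at 2828, 2954 and 2185 CPM in DC. B2m, the shared light chain, overlapped too, with 6952, 3663 and 3903 CPM in TDC and 3330, 5093 and 2025 CPM in DC (0.47, SE 0.43, edgeR adjusted p = 0.547). The higher genes were Cd1d1, which presents lipids (1.43, SE 0.32, adjusted p = 0.0209), and the chaperone Pdia3 (1.11, SE 0.30, adjusted p = 0.0461). Cd1d1 lost its call without TDC replicate 1 or 2 or DC replicate 1 or 3 (0.0568 to 0.0847), and Pdia3 without any 1 library (0.0788 to 0.127).

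Maturation genes leaned lower in TDC, whereas costimulatory and checkpoint ligands were called in both directions. In the list of mature migratory DC, 13 of 25 were lower and 1 higher, with 8 lower when TDC replicate 2 was left out. The median of that list was -2.02, and 20 members had every DC library above every TDC library, as 16.3% of all tested genes did. Il12b, a subunit of interleukin 12, was at 68.4, 72.2 and 69.7 CPM in DC and at 2.23, 3.67 and 7.26 CPM in TDC (-4.00, SE 0.52, edgeR adjusted p = 0.00307). Mreg, a melanosome and vesicle traffic protein, was at 262, 183 and 181 CPM in DC and at 8.77, 15.9 and 25.8 CPM in TDC (-3.63, SE 0.48). The higher gene was Cd86, a ligand of CD28 and CTLA-4 on T cells, at 1412, 1377 and 1162 CPM in TDC and at 257, 211 and 169 CPM in DC (2.63, SE 0.32, edgeR adjusted p = 0.00218). Its relative Cd80 was not called (-0.90). Among 17 costimulatory and checkpoint ligands, 4 were higher and 4 lower, with 2 lower when TDC replicate 2 was left out. Vsir (VISTA, 2.06, SE 0.32) and Lgals9 (galectin 9, 2.25, SE 0.36), both linked to restraint of T cells, were higher. The receptor Cd40 was lower (-2.78, SE 0.55, adjusted p = 0.0141, but 0.0556 without TDC replicate 2). So was Havcr2, which encodes TIM-3 (-2.12, SE 0.36).

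**Figure D3:**
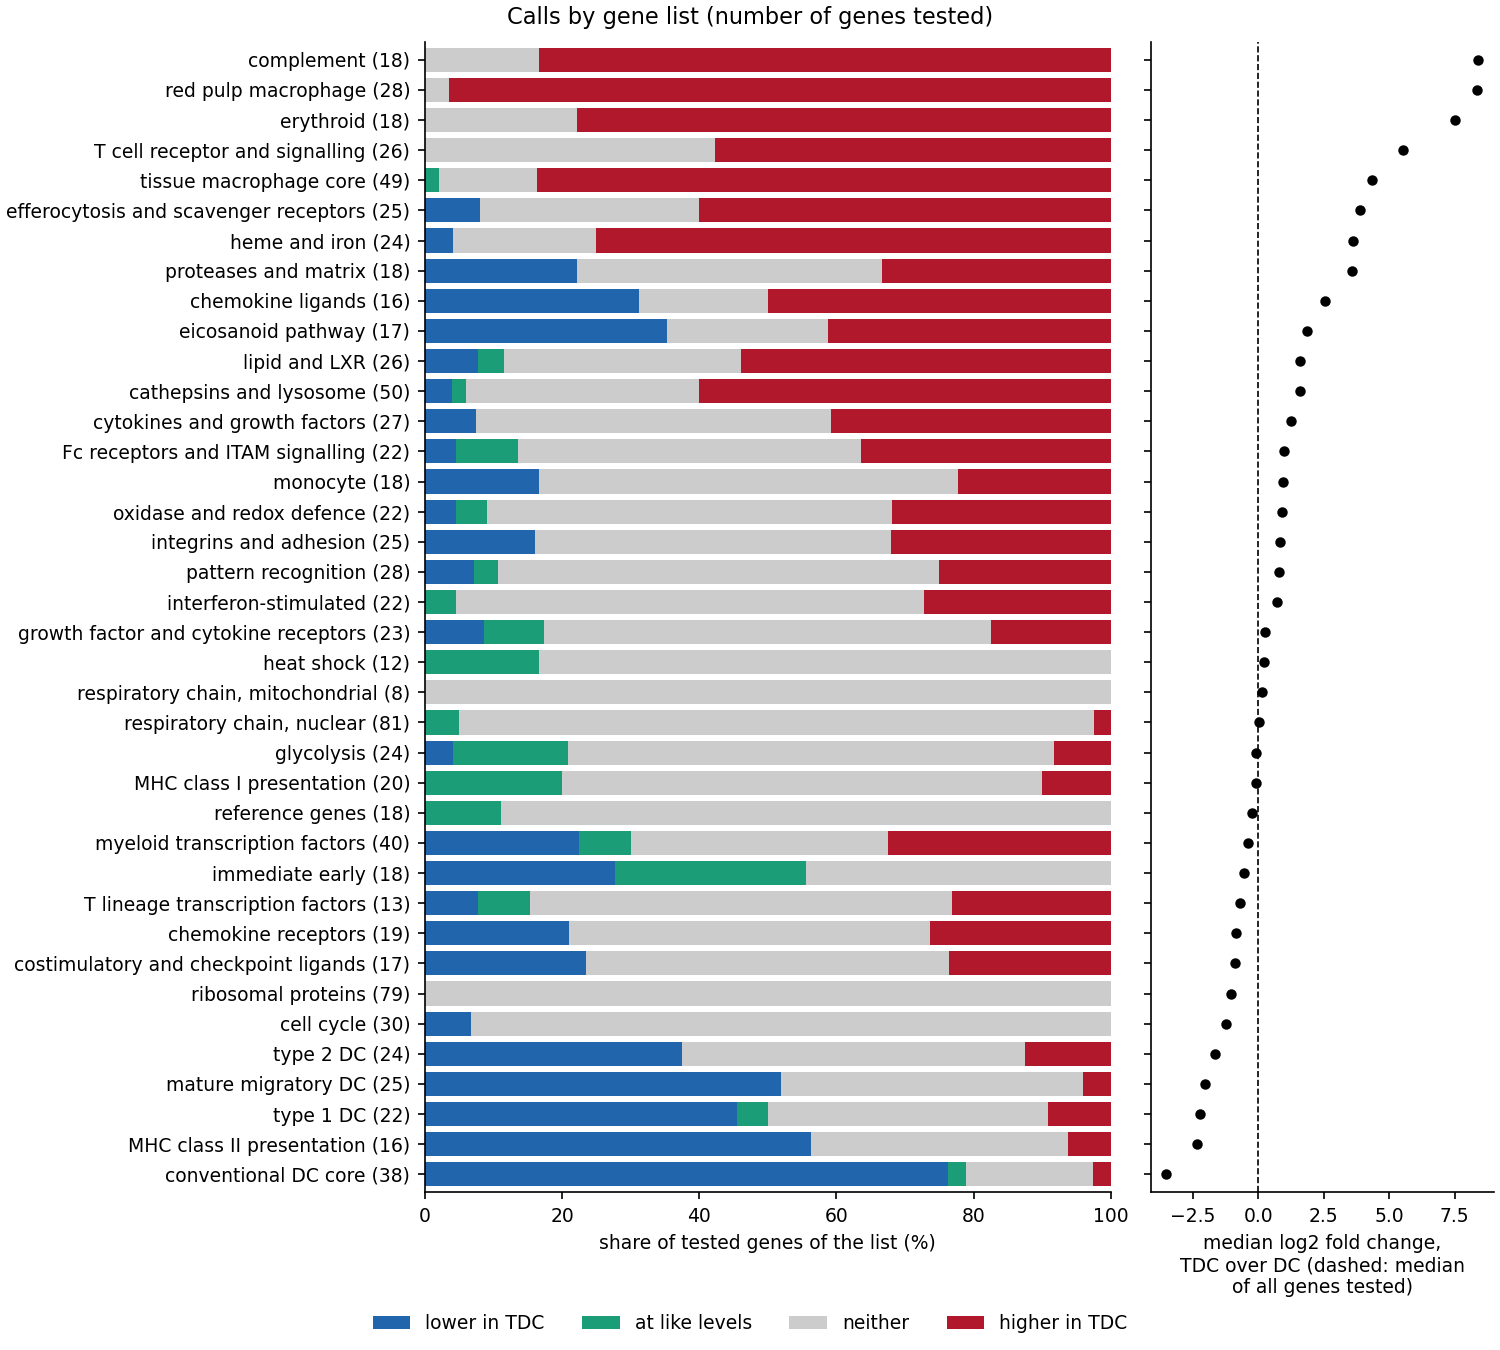
Left, share (%) of the tested genes of each list drawn that were lower in TDC, at like levels, neither, or higher in TDC, with the number tested in brackets. Lists of plasmacytoid DC, B cells, natural killer cells, neutrophils, mast cells, platelets, and stroma and endothelium are not drawn. Right, the median log2 fold change of the list, with the median of all genes tested dashed. Among the lists drawn, complement and red pulp macrophage genes lie at one end, with medians of 8.40 and 8.36, and conventional DC genes at the other, with -3.51.

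Transcription factors of myeloid cells divided nearly evenly, with 13 of 40 higher and 9 lower. Leaving out a single library left 6 to 10 higher and 4 to 7 lower, the fewest without DC replicate 1. Besides Spic, the higher factors included Maf, at 113, 88.7 and 95.3 CPM in TDC and at most 1.36 CPM in DC (7.33, SE 0.90), a factor known from macrophages. The lipid-sensing receptors Pparg (5.48, SE 0.46) and Nr1h3 (8.30, SE 1.45), which encodes LXR alpha, were higher. The lower factors included Nfil3, which is needed for type 1 DC, at 205, 218 and 162 CPM in DC and 29.6, 20.7 and 14.2 CPM in TDC (-3.18, SE 0.40, edgeR adjusted p = 0.00242). The NF-kappaB subunits Rel (-2.76, SE 0.42), Nfkb1 (-1.83, SE 0.37) and Relb (-2.02, SE 0.38) were lower, but Nfkb1 lost its call without TDC replicate 2 or DC replicate 1 (0.0578 to 0.0644) and Relb without TDC replicate 2 (0.0537). Irf4, a factor of type 2 DC, was at 47.9, 48.6 and 85.1 CPM in DC and at 0.154, 5.43 and 11.3 CPM in TDC and was not called (-3.42, SE 1.05, edgeR adjusted p = 0.0718). Spi1 (PU.1), which both lineages need, was not called either (-0.99, SE 0.35).

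Surface receptors of innate recognition leaned towards TDC. In the pattern recognition list 7 of 28 were higher and 2 lower, Tlr11 and Nlrp3, which both lost their calls when any library other than DC replicate 2 was left out (0.0603 to 0.137). Tlr4, the receptor for lipopolysaccharide, was at 142, 310 and 290 CPM in TDC and at 4.4, 1.73 and 15.7 CPM in DC (5.09, SE 0.85, edgeR adjusted p = 0.00779), and its partner Cd14 was at 1662, 711 and 511 CPM in TDC and at 9.82, 16.3 and 11.4 CPM in DC (6.26, SE 0.60). The adaptor Myd88, which most of these receptors share, was at like levels. Of 22 genes of Fc receptors and ITAM signalling, 8 were higher and 1 lower. The activating receptor Fcgr3 was at 1629, 899 and 775 CPM in TDC and at 10.5, 4.21 and 0 CPM in DC (7.80, SE 1.48). The inhibitory Fcgr2b went the other way, with 2.92, 12.9 and 13.2 CPM in TDC and 117, 50 and 65.4 CPM in DC (-3.0, SE 0.64, adjusted p = 0.0192, but 0.053 to 0.0691 without TDC replicate 3 or DC replicate 1). Fcgrt, the receptor that recycles IgG, was higher (3.64, SE 0.37). The ITAM adaptor Tyrobp overlapped between the groups (0.83, SE 0.59).

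Chemokine and cytokine genes were called in both directions. Of 16 chemokine ligands, 8 were higher and 5 lower, with 2, 1 and 3 lower when TDC replicate 1, 2 or 3 was left out and 3 without DC replicate 1. Ccl24, an eosinophil attractant, was at 386, 163 and 111 CPM in TDC and had reads in 1 DC library (10.3, SE 1.21). Ccl5, a T cell attractant, was at 138, 223 and 101 CPM in DC and at 8.31, 7.94 and 17.9 CPM in TDC (-3.76, SE 0.52). Among 19 chemokine receptors and related genes, 5 were higher and 4 lower (6 without TDC replicate 3 and 2 without DC replicate 1). Ccr3, a receptor for Ccl24 known from eosinophils and basophils, was at 1280, 1252 and 789 CPM in TDC and at 0.246, 0 and 5.18 CPM in DC (9.27, SE 1.61, edgeR adjusted p = 0.00892). The eosinophil and basophil genes Epx and Mcpt8 had no read in any of the 6 libraries, and Siglecf was at most 1.21 CPM in TDC. Of 27 cytokine and growth factor genes, 11 were higher and 2 lower, or 5 lower without DC replicate 3. Igf1, an insulin-like growth factor, was at 804, 740 and 721 CPM in TDC and had reads in 1 DC library, at 0.422 CPM. Gdf15, a stress-induced factor, was at 930, 1172 and 516 CPM in TDC and at most 0.246 CPM in DC (12.6, SE 0.89). The inflammatory cytokine Tnf overlapped (-0.33, SE 0.46).

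Genes of interferon responses, integrins and matrix enzymes were mixed. Of 22 interferon-stimulated genes 6 were higher (2 without TDC replicate 2 or DC replicate 1, and 3 without TDC replicate 3). Rsad2, which encodes the antiviral viperin, was at 54.6, 91.9 and 65.5 CPM in TDC and at 14.8, 9.59 and 8.48 CPM in DC (2.69, SE 0.41, edgeR adjusted p = 0.0054). Of 25 integrin and adhesion genes 8 were higher and 4 lower (1 without TDC replicate 2 or DC replicate 1, 2 without TDC replicate 1). Itgad, the CD11d chain of an integrin that binds Vcam1, was at 643, 1875 and 1102 CPM in TDC and at 5.39, 5.44 and 1.71 CPM in DC (8.17, SE 0.73). Itgam, which encodes CD11b, overlapped (-1.40, SE 0.65). Of 18 proteases and matrix genes 6 were higher and 4 lower (1 without TDC replicate 2 and 2 without DC replicate 1). Timp2, an inhibitor of metalloproteases, was at 664, 993 and 634 CPM in TDC and at most 5.18 CPM in DC (8.14, SE 0.73).

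Prostanoid genes were split by enzyme. Of 17 genes of the eicosanoid pathway, 7 were higher in TDC and 6 lower, and 3 were lower without TDC replicate 2. Ptgs1, the constitutive cyclooxygenase, was at 849, 1126 and 821 CPM in TDC and at 2.08, 0.433 and 0.165 CPM in DC (9.95, SE 0.98, edgeR adjusted p = 0.00119). Ptgs2, the inducible form, was at 366, 161 and 368 CPM in DC and at 4.77, 16.6 and 26.2 CPM in TDC (-4.23, SE 0.69, edgeR adjusted p = 0.00685). Neither gene overlapped between the libraries of the groups. Hpgd, which inactivates prostaglandins, was higher in TDC (5.20, SE 0.40). The prostaglandin E2 receptors Ptger3 (-6.39, SE 0.95) and Ptger4 (-3.58, SE 0.67) were lower.

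By the rule for the largest fitted changes, 15 genes were named each way. Fitted values of genes without a read in one group depend on the model, so no order among them is given. The genes higher in TDC were, by name, Epor, Gpd1, Hs3st2, Mrap, Ms4a8a, Paqr9, Pcolce2, Ptprm, Sh3bgrl2, Slc1a3, Slco2b1, Slpi, Tmem37, Vnn3 and Vstm4, and 13 of the 15 had no read in DC. Pcolce2, an enhancer of collagen processing, was at 403, 287 and 233 CPM in TDC, at least 6434-fold higher than in DC. Slc1a3, a glutamate transporter, was at 176, 243 and 212 CPM, at least 4404-fold higher. Epor, the erythropoietin receptor, was at 116, 105 and 84.4 CPM, at least 2133-fold higher. Slpi, a secreted inhibitor of leukocyte proteases, varied more, with 3935, 1250 and 859 CPM. The genes lower in TDC were Ncald, Ptger3, Cdh17, Mmp12, Mab21l3, Gfod1, Il1r2, Scn3a, Skint3, Gpr82, Ube2e2, Ppp1r14a, Pglyrp1, Klrb1f and Arhgap6. Of these, Il1r2, a decoy receptor for interleukin 1, was at 205, 800 and 200 CPM in DC and at 15.7, 6.63 and 3.87 CPM in TDC (-5.53, SE 0.83). Mab21l3, Scn3a, Skint3, Gpr82 and Klrb1f lost their calls without TDC replicate 2, and all of these but Mab21l3 without DC replicate 1 as well (0.0518 to 0.121 over the libraries that mattered).

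Genes of the T cell receptor had reads in TDC. Of 26 tested genes of the T cell receptor and its signalling, 15 were higher in TDC than in DC, with a median of 5.51, and 9 were higher without TDC replicate 3. The list took 0.0984% to 0.135% of the reads in TDC and 0.0416% to 0.0576% in DC. Cd3e, a signalling chain of the receptor, was at 9.77, 4.47 and 9.7 CPM in TDC with no read in DC, at least 167-fold higher (edgeR adjusted p = 0.0057). Cd3g was at 38.6, 8.49 and 31.1 CPM in TDC, also with no read in DC. The T cell libraries of the study had 364 to 510 CPM of Cd3e and 1544 to 2395 CPM of Cd3g on library-size scaling, far above TDC. Lck, the kinase that starts the receptor's signal, was at 46.5, 23.2 and 81.2 CPM in TDC, at 1.51, 1.42 and 0 CPM in DC and at 2572 to 3391 CPM in T cells. Its call (5.66, SE 1.14, adjusted p = 0.0153) was lost without TDC replicate 3 or DC replicate 1 (0.0522 to 0.0524). Among T lineage transcription factors, Lef1 was higher in TDC (14.7, 5.33 and 22.3 CPM), whereas Tcf7 overlapped with DC, at 12.9, 18.3 and 62.3 CPM in TDC and 78.9, 29.9 and 62.4 CPM in DC. The coreceptor gene Cd8a, which type 1 DC also use, was lower in TDC (-2.71, SE 0.58, adjusted p = 0.0194, but 0.0522 to 0.0667 without TDC replicate 1 or DC replicate 1). Cd3e, Cd3g, Lat, Lck and Lef1 were each lowest in TDC replicate 2, whereas Bcl11b, Foxp3 and Tcf7 were lowest in TDC replicate 1. Whether the receptor genes and the macrophage genes came from the same cells was not tested.

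Markers of further cells were looked at in both groups. Of the neutrophil, mast cell and endothelial markers, Ly6g, Mcpt8 and Emcn had no read in any library. S100a8 had 269, 38 and 2 reads in TDC and at most 6 in a DC library. S100a9 was not called, at 33.6, 2.56 and 0.0679 CPM in TDC and at most 1.61 CPM in DC. Cpa3 had 0, 1 and 6 reads in TDC and none in DC. Cdh5 had 0, 7 and 1 reads in TDC and 3, 16 and 0 in DC. Natural killer cell marker Ncr1 had reads in DC replicate 1 only, 42 of them. In DC, the B cell gene Ms4a1 was at 209, 176 and 173 CPM, against 8.08, 5.88 and 26.1 CPM in TDC (-3.80, SE 0.62), while Cd79a, which B cells need for their receptor, was at most 6.55 CPM in DC and overlapped. The share of reads of the B cell list was 0.0842% to 0.0932% in DC and 0.02% to 0.0401% in TDC. Of 4 platelet genes, 2 were higher in TDC and 1 lower, and none was called without DC replicate 1. Pf4 was at 11.1 to 15.5 CPM in TDC, and Itga2b had 5, 7 and 0 reads there. Of 7 tested genes of endothelium and stroma, 5 were higher in TDC, and the list took 0.0284% to 0.08% of the reads there and 0.00278% to 0.00787% in DC. They included Stab2 (156, 428 and 268 CPM), Lyve1 (6.16, 39.7 and 30.2 CPM) and Pdgfrb (2.08, 10.3 and 6.38 CPM), all lowest in TDC replicate 1, while Tek had no read and Col1a1 had 5 reads in TDC. The part of such cells in the differences above was not tested.

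**Figure D4:**
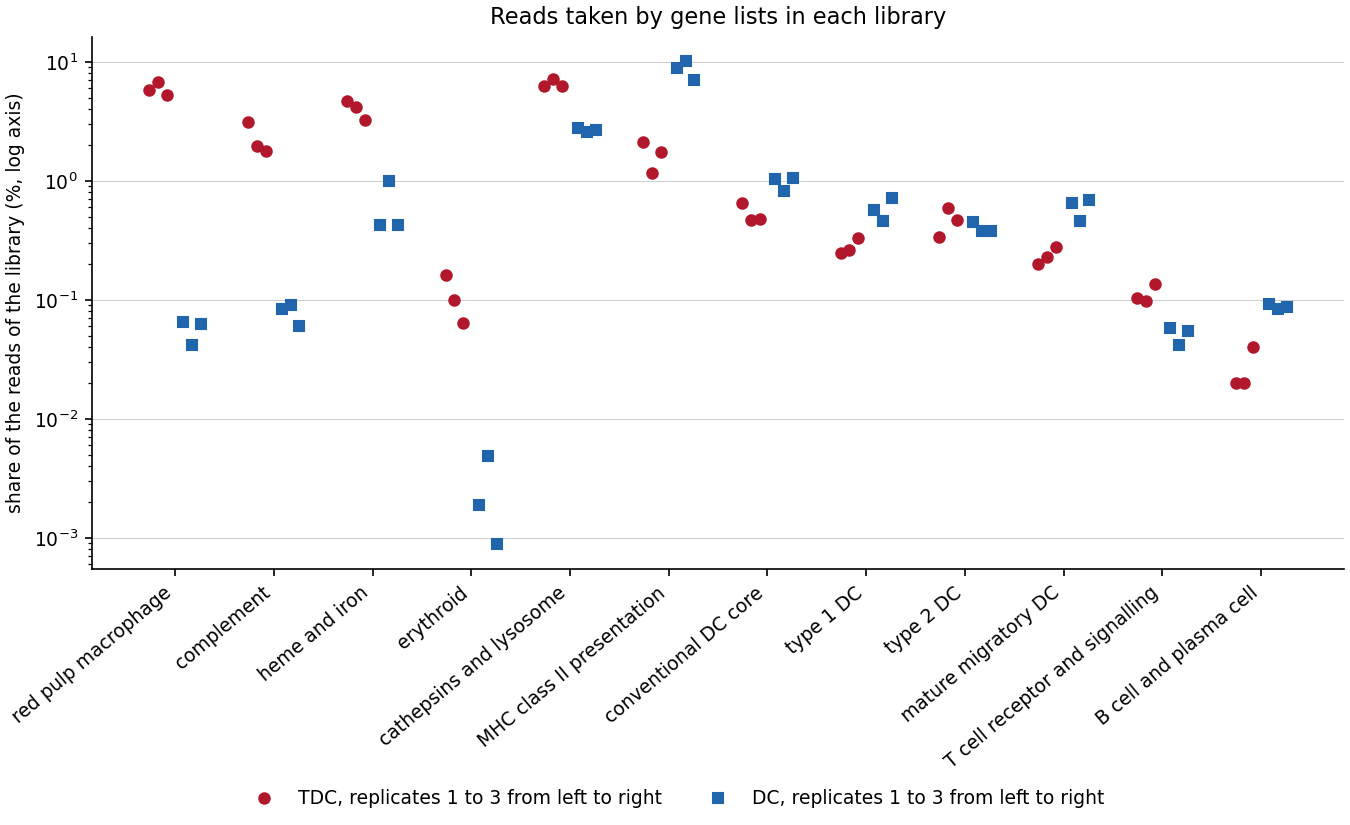
Share (%, log axis) of each library's reads taken by gene lists, with circles for TDC and squares for DC and replicates 1 to 3 from left to right. The TDC libraries hold 5.27% to 6.83% of their reads in red pulp macrophage genes and 1.16% to 2.14% in MHC class II genes, against 0.042% to 0.0648% and 7% to 10.2% in DC.

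What the populations had in common was judged by interval, since a gene without a call need not be equal. A gene was taken to be at like levels where the 95% interval of its log2 fold change, not adjusted for the number of genes, lay within -1 and 1 and its mean was at least 10 CPM in both groups. This held for 661 genes, 4.96% of those tested and 8.93% of the 7400 genes with at least 10 CPM in both. Of these 7400, 741 were called different and 5998 (81.1%) were neither, so for most genes of moderate level the 6 libraries showed neither a difference nor a likeness. The genes at like levels took 8.92% to 9.66% of the reads in TDC and 10.6% to 11.5% in DC. The count fell to 85 to 99 when TDC replicate 2, TDC replicate 3 or DC replicate 1 was left out, to 389 without TDC replicate 1 and to 228 without DC replicate 3, with fewer libraries and wider intervals.

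The 20 genes at like levels with the highest mean began with immediate early factors, which cells induce within minutes of a stimulus. Fos was at 3560, 5992 and 4372 CPM in TDC and at 2827, 7120 and 3799 CPM in DC (0.02, 95% interval -0.94 to 0.97). Jun was at 4160, 4683 and 3385 CPM in TDC and at 3366, 2815 and 3575 CPM in DC (0.33, SE 0.29). Junb, Klf6 and Zfp36, which destabilises cytokine messages, were also in this group. The same list held genes that were lower in TDC: Nr4a2 (-4.46, SE 0.54) and Nr4a3 (-4.60, SE 0.60), orphan nuclear receptors, and Atf3 (-2.14, SE 0.39). Nr4a1, at 117, 426 and 212 CPM in TDC and 2118, 1034 and 2057 CPM in DC (-2.79, SE 0.55, adjusted p = 0.014), lost its call without TDC replicate 3 (0.0591). In all, 5 of 18 immediate early genes were at like levels and 5 were lower, or 3 without TDC replicate 3.

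The remaining genes at like levels with high means were of several kinds. Ptpn6, the phosphatase SHP-1 that damps signals of ITAM receptors, was at 849, 832 and 1026 CPM in TDC and at 1064, 830 and 912 CPM in DC (-0.05, SE 0.28). Capza2, Capzb and Arpc5, subunits of actin capping protein and of the Arp2/3 complex, were in the group, as was Selplg, the ligand of P-selectin. Ptpn6, Capzb, Arpc5 and Selplg were abundant in the T cell libraries too, with means of 628, 1000, 772 and 1378 CPM on library-size scaling. By contrast the actin-binding genes Coro1a and Lsp1 were lower in TDC, with 207, 104 and 436 CPM of Coro1a in TDC and 2208, 2046 and 1926 CPM in DC (-3.05, SE 0.53). The lysosomal exonuclease Pld4 and the phospholipase-like Plbd1 were at like levels, at 1143, 1105 and 1026 CPM of Pld4 in TDC and 909, 783 and 847 CPM in DC (0.37, SE 0.27). Ifngr1 and Ifngr2, the chains of the receptor for interferon gamma, were both in the group (0.05, SE 0.31, and 0.15, SE 0.30). Irf8 was at 536, 855 and 704 CPM in TDC and at 727, 481 and 955 CPM in DC (-0.05, SE 0.36). The survival gene Mcl1 and the glycolytic enzymes Gapdh, Pkm, Ldha and Pgam1 were at like levels as well.

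**Figure D5:**
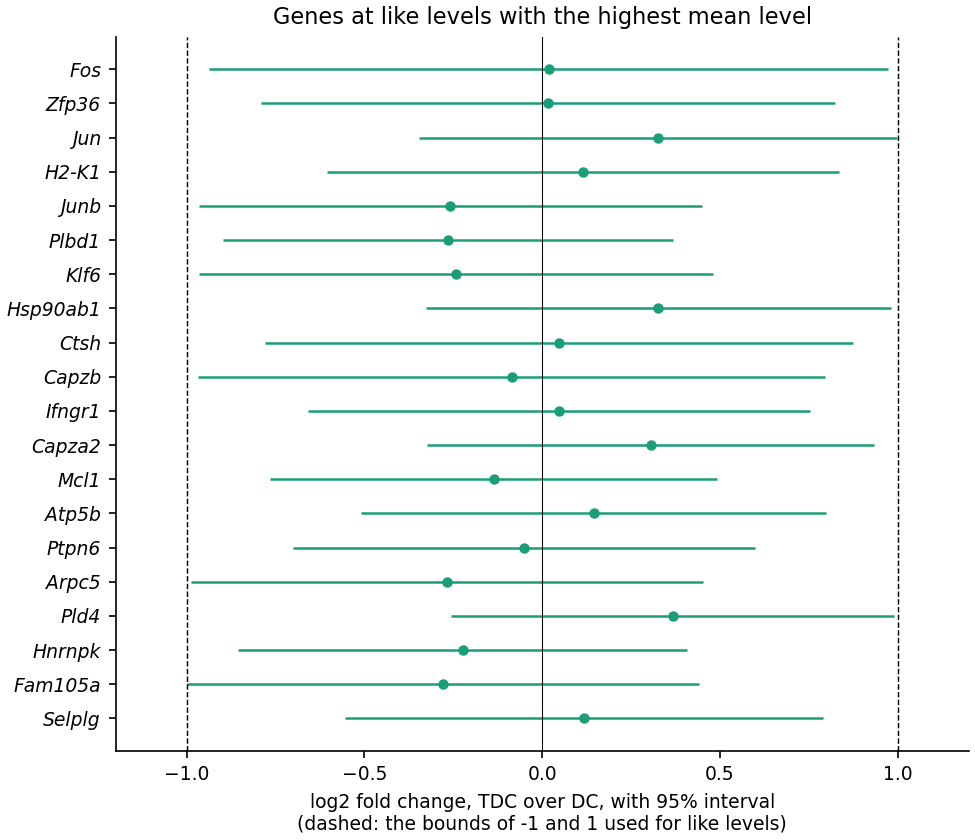
Log2 fold change of TDC over DC (horizontal) with its 95% interval for the 20 genes at like levels that had the highest mean level, ordered by their level in DC. Every interval lies between the dashed bounds of -1 and 1, as the rule requires, and Fos is at 0.02.

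Calls in lists of general cell functions were set against the 8.99% of all tested genes that were higher and the 4.43% that were lower. Of all 13332 genes tested, 3627 had an unadjusted p under 0.05 in either direction, and 16.3% had every DC library above every TDC library. Over the same 13332 genes, DESeq2 called 1161 lower, limma-voom 800 and edgeR with library-size scaling 767. Of 18 reference genes, none was called by edgeR, DESeq2 or limma-voom, and 3 had an unadjusted p under 0.05. Ribosomal protein genes had a median of -1.04. EdgeR called none of the 79 tested, 32 were lower at an unadjusted p under 0.05, and DESeq2 called 9 lower, limma-voom 4 and edgeR with library-size scaling 12. Without DC replicate 3, edgeR called 6 of them lower. Of 81 nuclear genes of the respiratory chain, 2 (2.47%) were higher, or 1 when any library other than DC replicate 3 was left out. Of 30 cell cycle genes, with a median of -1.22, edgeR called 2 (6.67%) lower, Birc5 and Tyms, and both calls depended on single libraries (adjusted p up to 0.111 and 0.171). In the same list 14 genes were lower at an unadjusted p under 0.05, DESeq2 called 11 lower and limma-voom 5, and 14 had every DC library above every TDC library. Of 24 glycolysis genes, 2 (8.33%) were higher, or 1 without TDC replicate 1 or 2 or DC replicate 1 or 2, and 1 (4.17%) was lower. The transporter Slc2a3 was at 132, 60.7 and 152 CPM in DC and at 2.31, 10.2 and 12.6 CPM in TDC (-3.77, SE 0.69), and hexokinase 3 (Hk3) was at 129, 314 and 210 CPM in TDC and at 44.1, 17.8 and 47 CPM in DC (2.58, SE 0.51). Heat shock genes varied within both populations. Hspa1a was at 33.6, 1340 and 815 CPM in TDC and at 36, 489 and 847 CPM in DC, low in replicate 1 of each.

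The most abundant genes overlapped in part. Of the 100 genes with the highest mean in each population, TDC and DC had 49 in common, TDC and T cells 26, and DC and T cells 46. Among the 500 most abundant, TDC and DC shared 262, or 52.4%. Spearman correlations over the tested genes were 0.907 to 0.965 between TDC libraries, 0.87 to 0.938 between DC libraries and 0.689 to 0.84 between a TDC and a DC library, where all values share the gene's general abundance and are given as a description. The lowest TDC to DC value was between TDC replicate 1 and DC replicate 3, the DC library with the fewest genes with a read, and the highest between TDC replicate 3 and DC replicate 1. TDC replicate 3 was also the TDC library with the most Flt3, Cd209a, Xcr1 and Lyz2 (12019 CPM, against 3637 and 5759).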

How the data were processed

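RNA of sorted spleen cells was extracted with a column kit and made into stranded 3' libraries (Lexogen QuantSeq), per the labels' protocols, which also name a culture medium without saying at which step it was used. The deposited table holds raw read counts per gene symbol, with FastQC, MultiQC, Trimmomatic, STAR and featureCounts named in the submitters' processing notes without versions. Those notes name hg38, a human genome build, although the samples are mouse. The gene annotation and whether counting used strand were not given in the sources used here, and overlapping, antisense and near-identical genes may share reads. Of 50508 symbols, 26 had been turned into dates and 25397 had no read in the 6 libraries.

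Counts of 3 TDC and 3 DC libraries were analysed in R 4.3.3 with edgeR 4.0.16 (filterByExpr with a minimum count of 10 and a minimum total of 15, TMM factors, robust quasi-likelihood test, 4 residual degrees of freedom, common biological coefficient of variation 0.579). Over all genes, replicates of a group differed by a chi-square of 76.7 to 279 per degree of freedom, so no library was a repeat of another. The procedure was tested on simulated data of 12951 genes, in which 5 of 12755 unchanged genes were called. The alternatives used other scalings and filters, limma 3.58.1 (voom), DESeq2 1.42.0, edgeR's test against a log2 fold change of 1, all 9 libraries, a block on the replicate number, and each library or replicate number left out.

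Of 1067 genes in 45 lists, 1065 were found, 924 of them tested. Flvcr1 and Flvcr2 were not analysed here. The comparison, the lists and the rules were chosen with earlier results of these data known. Named genes were the 15 largest called fold changes each way without overlap and with at least 10 CPM in the higher group, the 10 largest called differences of mean CPM each way, the 20 genes at like levels with the highest mean, the most significant members of each list (at most 4), the marker genes, and further list members that complete a group. Receptor segments, mitochondrial and ribosomal protein genes and clone-based names were left out of the first 3 of these. Promoter windows are RefSeq sequences of GRCm38.p6.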

Additional observations from a re-analysis of the deposited data

How the results depend on the processing

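The main counts were 1199 genes higher, 591 lower and 661 at like levels. Over the settings that left out 1 library or 1 replicate number, 347 to 1173 genes were higher, 31 to 541 lower and 0 to 539 at like levels. DESeq2 called 1827 genes higher and 1161 lower, and edgeR's test against a log2 fold change of 1 called 294 lower. The count at like levels was 423 without a filter on low counts, 1116 in the fit of all 9 libraries, 0 with a bound of 0.5 and 3307 with a bound of 1.5. With library-size scaling, 56.64% of called genes were higher, against 66.98% with TMM. The other scalings, filters and tools that were run kept the counts of higher and lower genes within 1.5 times.

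In the labels, TDC and DC libraries with the same replicate number share a name prefix and a pool size, but no label says that they came from the same mice or day. Their deviations from the group means correlated at -0.189, -0.431 and 0.0574 over genes, which neither shows a pairing nor excludes one. A fit with the replicate number as a block called 723 genes higher and 303 lower and left 11 at like levels. Of 200 named genes that were tested, 172 were called, 82 of them under every alternative run. Of 3988 values of named genes under alternatives, 3677 stayed on their side of the threshold, 304 lost their call, 7 gained one and 0 changed sign with a call. A change of sign without a call in either fit is counted among the 3677. With 3 libraries a group, 6 of 68 simulated 4-fold changes were called, in a simulation where 12755 of 12951 genes were unchanged.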

Other observations

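Some gene groups belong to neither side of the comparison as told above. Over all tested genes, 8.99% were higher in TDC and 4.43% lower. Of 18 monocyte genes, 4 (22.2%) were higher in TDC and 3 (16.7%) lower. Fcgr4, an activating Fc receptor of monocytes and macrophages, was at 468, 201 and 181 CPM in TDC and at 27.5, 34.5 and 14.1 CPM in DC (3.48, SE 0.54, edgeR adjusted p = 0.00604). Plac8, a small protein of monocytes and some dendritic cells, was at 432, 874 and 261 CPM in DC and at 19.6, 9.49 and 51.2 CPM in TDC (-4.29, SE 0.75, edgeR adjusted p = 0.00918). The classical monocyte gene Ly6c2 was low in both, at 1.66 to 8.69 CPM in TDC and 8.04 to 17.7 CPM in DC. Of 23 growth factor and cytokine receptors, 4 were higher and 2 lower (1 without TDC replicate 2, DC replicate 1 or DC replicate 3). Il10rb, a chain of the interleukin 10 receptor, was at 374, 341 and 325 CPM in TDC and at 94, 81.8 and 48.4 CPM in DC (2.21, SE 0.35), whereas its partner chain Il10ra overlapped (-0.12, SE 0.52). Of 14 genes of plasmacytoid dendritic cells, 1 (7.14%) was higher and 1 (7.14%) lower, near the shares of all tested genes. Both calls were lost without TDC replicate 1 or 2 or DC replicate 1 or 3. Of 9 genes of natural killer and cytotoxic cells, 1 (11.1%) was higher (0 without TDC replicate 1). In that list 2 (22.2%) were lower (1 without TDC replicate 1 or DC replicate 1). Of 5 neutrophil genes 1 was higher, the chemokine receptor Cxcr2 at 2.16, 5.98 and 11.5 CPM in TDC, and 2 were lower, or 1 without TDC replicate 2 or 3.

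A few list members with too uneven counts for the test had reads in TDC libraries only, and were picked here after their values were seen. Alox15, a lipoxygenase of resident macrophages and eosinophils, had 736, 1045 and 5 reads in TDC replicates 1, 2 and 3 and none in DC. Colec12, a scavenger receptor, had 0, 302 and 313 reads in TDC and none in DC. Gata1, an erythroid and megakaryocyte transcription factor, had 1, 93 and 39. In each case 1 TDC library stood near or at 0, and no test was made.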
